A study of Mus musculus with 1047 samples.

Results

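The choroid plexus barcodes described here are the droplets of a 10x Chromium single-cell table of aged mouse brain that met a fixed marker rule. A barcode is the tag of 1 droplet, meant to hold 1 cell, and a UMI is 1 counted RNA molecule. A barcode was taken if it held 500 or more genes, UMIs of at least 4 of the 7 genes Folr1, Kl, Kcnj13, Clic6, Aqp1, Sostdc1 and Prlr, and fewer than 5 of the 5 motile-cilium genes Ccdc153, Tmem212, Dynlrb2, Pifo and Rsph1. Its summed P2ry12, Cx3cr1 and Trem2 UMIs, which mark microglia, had to stay under 30 per 10000. The rule took 558 of the 20495 barcodes with 500 or more genes, which is 2.72% (exact 95% binomial interval 2.50 to 2.95%), out of 21197 barcodes in the table. The barcodes were thus chosen by their measured UMIs of these 15 genes, and the levels of those genes are given as a description.

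The choroid plexus is a vascular fold in the brain ventricles, covered by a single epithelial layer that secretes cerebrospinal fluid. Its epithelium moves sodium, chloride and bicarbonate into the ventricle with water following, seals the blood to fluid border with tight junctions, and exports carrier proteins such as transthyretin. Ependymal cells, the multiciliated lining of the ventricle wall, are the neighbouring epithelium and share an origin with it, so they served as the nearest class for comparison.

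The labels describe 5 aged 10x libraries of 24 month old C57BL/6J male mice, each a pool of 3 or 4 animals. Of these, 3 are titled wild type grey matter (frontal cortex) and 2 wild type white matter (optic tract, medial lemniscus and corpus callosum). The white matter library of batch 3 is annotated ApoeKO in its genotype field, and its wild type title was followed. All carried actinomycin D at 45 µM during dissociation, a blocker of transcription, and beads removed myelin, while no cell sort was named. Per the labels, choroid plexus was dissected away from the white matter. The barcodes carry 5 different endings that no label ties to a library, so the table is 1 pooled sample. No test between samples was possible, no p-value is given, and intervals cover counting error only. A second table, deposited for 4 ApoeKO white matter libraries of 18 month old mice, was read at the end for 2 sets of columns. Those libraries also carried actinomycin D at 45 µM.

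The share of choroid plexus barcodes differed widely between endings. It was 339 of 4237 (8.00%) in ending 1_2_2 and 185 of 3975 (4.65%) in ending 1_2_1. Only 20 of 4230 (0.473%) were found in ending 1_1_2, 14 of 5693 (0.246%) in ending 1_3, and 0 of 2360 in ending 1_1_1, which allows a share of up to 0.127%. Endings 1_2_1 and 1_2_2 thus held nearly all of them, and the values of the 20 and 14 barcodes rest on totals of 190737 and 187968 UMIs, against 2020286 and 3723221 UMIs. The 468 ependymal-like barcodes, which held at least 4 of the 5 motile-cilium genes, also lay mainly in these endings, with 323 in ending 1_2_2, 144 in ending 1_2_1, 1 in ending 1_1_2 and 0 in ending 1_3. Of all barcode sequences, 41 occurred under 2 endings, and 1 choroid plexus barcode was among those 82 columns.

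The choroid plexus barcodes had a median of 8602 UMIs and 2464 genes, against 12395 UMIs and 4275.5 genes in ependymal-like barcodes. When every barcode was thinned to 2000 UMIs other than Ttr, the 501 choroid plexus barcodes deep enough showed a median of 1102 genes, against 1234 in ependymal-like, 1209 in endothelial-like and 1116 in astrocyte-like barcodes. Thinning left out 57 choroid plexus, 58 ependymal-like, 155 endothelial-like and 599 astrocyte-like barcodes.

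Of the markers Ttr, Folr1, Kl and Clic6, only Ttr took no part in the rule, so it alone checks the label. Every one of the 558 barcodes held Ttr UMIs, and Ttr made 0.584 to 61.0% of a barcode's UMIs, with a median of 15.0%. The medians of ependymal-like, astrocyte-like, endothelial-like and microglia-like barcodes were 0.0211, 0, 0 and 0%. As a description of the rule genes, Folr1, a folate receptor, was found in 92.3% of choroid plexus barcodes, Clic6, a chloride channel protein, in 88.7%, and Kl (klotho, a co-receptor for fibroblast growth factor 23 that is also shed into fluid) in 88.4%. Ttr UMIs in small number were common in other classes too, as given further on.

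Around the threshold, the 129 barcodes with 4 rule genes had a median Ttr share of 6.95%, and Enpp2, a gene outside the rule, was detected in 95.3% of them. The 128 barcodes just outside, with 3 rule genes and all other conditions met, had a median Ttr share of 4.15%, and Enpp2 was detected in 91.4%. Inside the rule, the median Ttr share was 8.50% in 135 barcodes with 5 genes, 16.6% in 182 with 6 and 25.5% in 112 with all 7. The threshold therefore cut through a continuous range. Of the 594 barcodes with 4 or more rule genes and 500 or more genes, 17 were left out for all 5 motile-cilium genes and 19 for microglial UMIs. Most members still held some motile-cilium genes, with 62 barcodes at 0, 82 at 1, 131 at 2, 242 at 3 and 41 at 4.

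Doublets were not called, and other cell types' markers were counted instead. Of the 558 barcodes, 256 (45.9%) held 3 or more of 7 microglia markers, and their summed level was 1325 counts per 1000000 UMIs (CPM), against 1269 CPM in ependymal-like barcodes and 26261 CPM in all other barcodes. For the remaining lists, 3 or more markers were present in 20 barcodes for astrocytes, 14 for oligodendrocytes, 6 for T cells, 2 for endothelium, 1 for mural cells, 1 for border macrophages and 0 for fibroblasts and neurons. Red blood cell markers reached 3 or more in 35 barcodes. Of the 7 border macrophage markers, Cd163, F13a1, Lyve1 and Clec4n were at 0, while Mrc1, Pf4 and Ms4a7 were not. The summed level of this list was 4.74 CPM. Leaving aside the list of 7 microglia markers, 74 choroid plexus barcodes and 368 of the 468 ependymal-like barcodes held 3 or more markers of another type or all of P2ry12, Cx3cr1 and Trem2, 361 of the ependymal-like ones through astrocyte markers, several of which ependyma also expresses. With the microglia list counted as well, the number was 272 choroid plexus barcodes, and the 286 left had 371 genes at least 4-fold higher and 2147 lower than ependymal-like barcodes, against 386 and 1942 for all 558.

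Ttr encodes transthyretin, which carries thyroxine and, through retinol binding protein, retinol. It took 883868 of 6122212 UMIs in the choroid plexus barcodes, 14.4% (14.4 to 14.5%). By ending it took 11.8% in 1_1_2, 16.0% in 1_2_1, 13.8% in 1_2_2 and 12.2% in 1_3. These 4 shares lie within a narrow band although the number of barcodes behind them runs from 14 to 339. As levels, Ttr stood at 144371 CPM in choroid plexus barcodes, 334 CPM in ependymal-like and 797 CPM in all other barcodes, a ratio of 432 (415 to 450, 95% Poisson) to ependymal-like barcodes. A stricter rule of fewer than 2 motile-cilium genes left 144 barcodes, in which Ttr took 25.9% of UMIs.

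The rule genes themselves had these levels in choroid plexus and ependymal-like barcodes. Kcnj13, an inward rectifier potassium channel of the ventricular membrane, stood at 434 and 0.84 CPM, Kl at 402 and 1.40 CPM, and Prlr, the prolactin receptor, at 240 and 4.34 CPM. Aqp1, the water channel of this epithelium, stood at 44.6 and 1.12 CPM, and Sostdc1, a secreted inhibitor of BMP and Wnt signals, at 498 and 45.5 CPM. Clic6 stood at 520 and 36.2 CPM. Folr1 was the least separated of the 7, at 521 and 249 CPM.

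**Figure D1:**
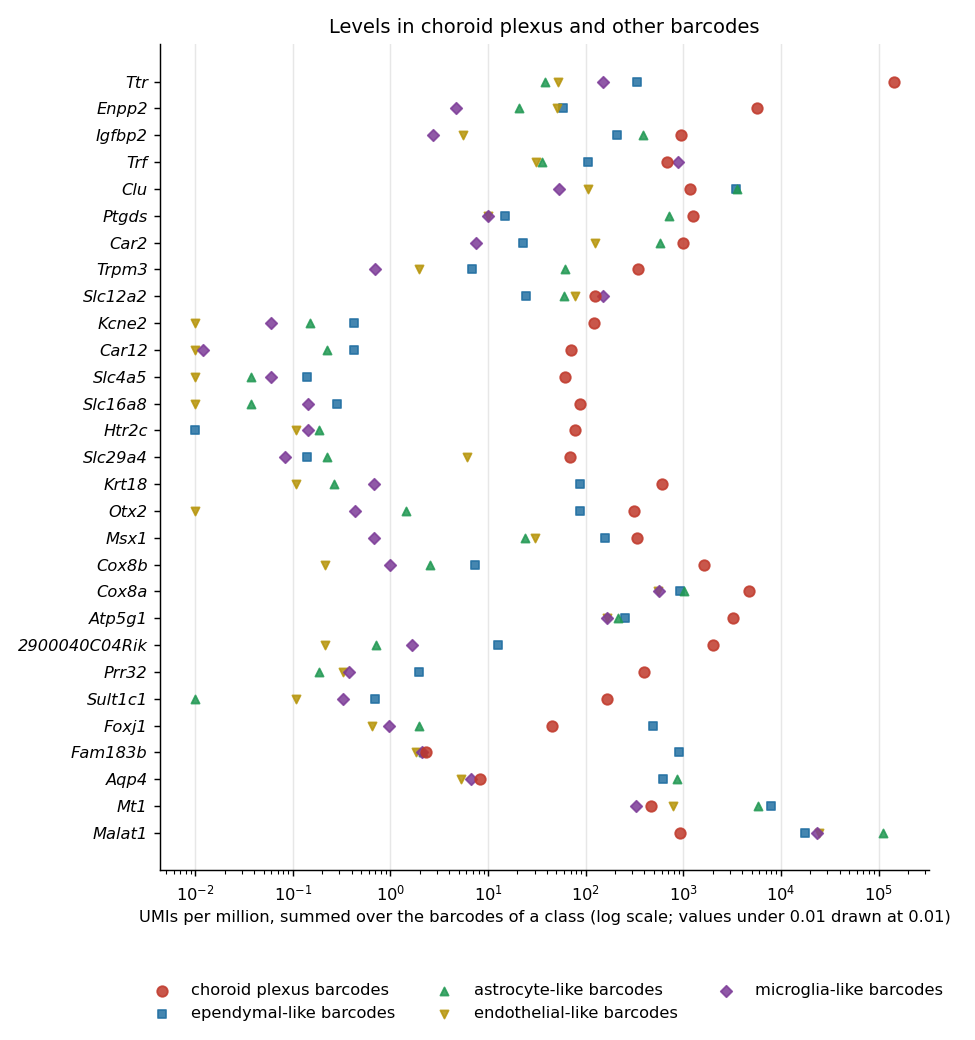
Levels of selected genes in CPM on a log axis, summed over the barcodes of 5 classes; values under 0.01 are drawn at 0.01. Choroid plexus points lie to the right for Ttr (144371 CPM) through Sult1c1 (165 CPM), with exceptions such as Clu and Trf, and to the left of ependymal-like points for Foxj1, Fam183b, Aqp4, Mt1 and Malat1.

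Against all other barcodes, the genes with the largest ratio (at least 100 CPM and present in at least 25% of choroid plexus barcodes) were, beside Ttr and rule genes, Enpp2, Kcne2, Cox8b, Sult1c1, Prr32, Wdr86, 2900040C04Rik, Sult1c2, Frmpd1os, Prcd, Ooep, Wfdc2, Steap1 and Vat1l. Enpp2 encodes autotaxin, a secreted enzyme that makes lysophosphatidic acid. By ending it stood at 4205, 7417, 4735 and 6326 CPM in choroid plexus barcodes (endings 1_1_2, 1_2_1, 1_2_2 and 1_3), and its pooled 5653 CPM was 137 times the 41.1 CPM of all other barcodes. Kcne2 encodes a beta subunit of potassium channels. It stood at 47.2, 183, 90.5 and 197 CPM in the same endings, and at 0.91 CPM in all other barcodes. Both genes were higher in each ending of the choroid plexus barcodes than in the other cells pooled.

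Cox8b, a subunit isoform of cytochrome c oxidase known from heart and skeletal muscle, stood at 1248, 1308, 1776 and 2442 CPM by ending, against 14.2 CPM in all other barcodes. The unnamed transcript 2900040C04Rik stood at 2716, 1757, 2096 and 1974 CPM, against 20.7 CPM. Prr32 stood at 472, 365, 406 and 314 CPM, against 3.61 CPM. All 3 stood well above the other barcodes in each of the 4 endings. The sulfotransferase genes Sult1c1 and Sult1c2 differed more between endings. Sult1c2 was present in 59.1% of choroid plexus barcodes and stood at 388, 143, 168 and 112 CPM. Sult1c1 was present in 29.6% and stood at 10.5 CPM (2 UMIs), 131, 198 and 21.3 CPM (4 UMIs).

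Promoter windows of 3 of these genes are printed because each holds a match to a motif of a transcription factor family expressed in these barcodes. Windows run from 250 bases before to 50 bases after the start of the gene, from RefSeq on GRCm38.p6. Of 22 named genes looked up, 17 had a window and these had 21 windows. TAATCC, the core bound by homeodomain proteins of the Otx kind, was sought on both strands, as were GTTGCC, bound by RFX proteins, and GTAAACA, bound by forkhead proteins. Capitals mark the match, which reads GGCAAC or GGATTA where it lies on the opposite strand.
Kcne2, chr16:92292139-92292438, plus strand: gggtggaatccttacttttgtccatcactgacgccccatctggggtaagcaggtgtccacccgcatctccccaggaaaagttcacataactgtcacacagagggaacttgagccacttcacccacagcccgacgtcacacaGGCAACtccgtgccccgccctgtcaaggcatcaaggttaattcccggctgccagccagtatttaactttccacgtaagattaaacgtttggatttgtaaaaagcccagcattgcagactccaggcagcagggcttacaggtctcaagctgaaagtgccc
Prcd, chr11:116656858-116657157, plus strand: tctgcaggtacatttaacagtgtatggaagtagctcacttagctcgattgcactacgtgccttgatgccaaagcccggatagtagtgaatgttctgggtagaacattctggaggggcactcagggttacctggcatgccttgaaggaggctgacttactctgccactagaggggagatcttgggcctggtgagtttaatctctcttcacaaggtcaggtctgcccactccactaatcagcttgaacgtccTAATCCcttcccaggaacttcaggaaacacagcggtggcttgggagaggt
Sult1c1, chr17:53990582-53990881, minus strand: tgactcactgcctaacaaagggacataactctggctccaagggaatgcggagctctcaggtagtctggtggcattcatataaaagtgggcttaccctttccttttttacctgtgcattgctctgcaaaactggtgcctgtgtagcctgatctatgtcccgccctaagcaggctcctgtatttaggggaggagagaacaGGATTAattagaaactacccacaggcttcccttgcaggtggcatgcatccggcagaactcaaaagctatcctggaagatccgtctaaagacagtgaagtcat
TAATCC was in 3 of the 21 windows (Prcd, Sult1c1 and Vat1l), against 7.06% of all 32851 windows. GTTGCC was in 4 (Aqp1, Kcne2, Prr32 and Steap1), against 12.5%, and GTAAACA in 1 (Prlr), against 3.65%. These matches are descriptions of letters and not of binding.

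Choroid plexus and ependymal-like barcodes were next compared over 7745 genes with at least 20 UMIs in both classes together and 20 CPM in one, the rule genes left out. At least 4-fold higher in choroid plexus barcodes were 386 genes (4.98%), and at least 4-fold lower were 1942 (25.1%). The median log2 ratio of all these genes was -0.68. TMM scaling, which removes the weight of the few most abundant transcripts, raises each log2 ratio by 0.64, changes which genes pass the minimum level, and gave 797 higher and 1258 lower genes. Against all other barcodes, 558 of 7948 genes (7.02%) were at least 4-fold higher and 2185 (27.5%) at least 4-fold lower, with 1086 and 1394 under TMM scaling. List counts are read beside these shares. Among named genes with the largest ratio to ependymal-like barcodes were, beyond those above, Tuba1c, a tubulin (247 against 1.12 CPM), Rilp, a Rab7 effector of lysosomes (101 against 0.84 CPM), Cdr2 (192 CPM, against 14 UMIs) and Pcp4, a calmodulin regulator (1132 against 11.8 CPM).

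Of the secreted and carrier proteins, 20 of 26 in the table were measured, and 7 were at least 4-fold higher and 4 lower in choroid plexus than in ependymal-like barcodes (9 and 2 under TMM scaling), with a median log2 ratio of 0.46. The higher ones included Enpp2 (5653 against 58.3 CPM) and Igfbp2, a carrier of insulin-like growth factors (948 against 208 CPM). Ins2, an insulin gene, stood at 27.4 CPM in 22.2% of choroid plexus barcodes, against 0.14 CPM (1 UMI) in ependymal-like barcodes, and 0.0197% of microglia-like barcodes (median depth 7578 UMIs) held an Ins2 UMI. Bmp7, a growth factor, stood at 24.8 against 2.10 CPM. Apoe, the lipid carrier, was on the other side at 3215 against 13341 CPM. This log2 ratio was within 4-fold in 6 alternative settings, at -1.42 under TMM scaling and -0.90 with fewer than 2 motile-cilium genes. Clu, clusterin, stood at 1181 against 3483 CPM, within 4-fold. Cst3, the protease inhibitor cystatin C, stood at 2079 against 1820 CPM, so abundant secreted products did not all separate the classes.

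Ion and water transport had 20 of 27 genes measured, with 8 higher, 3 lower (9 and 2 under TMM scaling) and a median log2 ratio of 0.40. Car2, Car12 and Car14, carbonic anhydrases that supply bicarbonate, stood at 985, 69.9 and 107 CPM in choroid plexus barcodes, against 22.7, 0.42 and 1.12 CPM in ependymal-like barcodes. Slc4a5, a sodium bicarbonate cotransporter of the ventricular membrane, stood at 61.3 CPM against 0.14 CPM (1 UMI), a ratio of 438 (78.1 to 17338). Slc4a10, a bicarbonate transporter of the basolateral membrane, stood at 82.8 against 15.9 CPM, and Slc12a2, the sodium potassium chloride cotransporter NKCC1, at 126 against 24.3 CPM. Kcne2 stood at 123 CPM against 0.42 CPM (3 UMIs), a ratio of 293 (99.9 to 1424). The cation channel gene Trpm3, host of a microRNA known from this epithelium, stood at 345 against 6.86 CPM. The sodium pump subunit Atp1b1 stood at 312 against 210 CPM. Aqp4, the water channel of astrocytes and ependyma, stood at 8.33 against 625 CPM. Carbonic anhydrases, bicarbonate and chloride transporters and the channel genes Kcne2 and Trpm3 made up the 8 higher members, and Aqp4 and Atp1b2 were among the 3 lower ones.

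Receptors and solute carriers had 27 of 34 genes measured, with 8 higher, 7 lower and a median log2 ratio of 0.40. Under TMM scaling 13 were higher and 5 lower with a median of 2.03, and with only barcodes of 0.5% or more mitochondrial UMIs 13 were higher and 6 lower with a median of 1.21. Htr2c, the serotonin receptor for which this epithelium is a classic source, stood at 78.6 CPM and had 0 UMIs in ependymal-like barcodes, which makes it at least 187.2-fold higher against a floor of 3 UMIs over the class. By ending Htr2c stood at 62.9, 77.7, 75.2 and 170 CPM. Slc16a8, a lactate transporter, stood at 86.6 against 0.28 CPM (2 UMIs), and Slc29a4, a monoamine transporter, at 69.3 against 0.14 CPM (1 UMI). Slco1c1, a thyroxine transporter, stood at 142 against 30.1 CPM, although endothelial-like barcodes had 1172 CPM. Lrp2, megalin, had 2 UMIs in the choroid plexus barcodes (0.33 CPM) against 44.5 CPM, and the glucose transporter Slc2a1 stood at 41.7 against 612 CPM.

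Thyroid hormone and retinoid handling had 11 of 23 genes measured, 4 of them higher and 2 lower, with a median log2 ratio of -1.16. Under TMM scaling 10 were measured, 5 higher and 1 lower, with a median of 0.87, so the turn comes with a changed set of genes. Stra6, the receptor that takes up retinol from its binding protein, stood at 37.6 against 0.28 CPM (2 UMIs). Ttr and Slco1c1 are members of this list too. The retinol and retinal dehydrogenases Rdh10 and Aldh1a1 stood at 24.2 against 129 CPM and at 1.31 against 106 CPM. Carriers and uptake proteins of the list were on the higher side, and these enzymes on the lower.

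Tight junction and epithelial polarity genes had 14 of 25 measured, 2 higher and 4 lower, with a median log2 ratio of -1.43, and the share lower was near that of all genes. Under TMM scaling 5 of 16 were higher and 1 lower, with a median of -0.10, and with only barcodes of 0.5% or more mitochondrial UMIs 5 were higher and 3 lower. The keratin Krt18 stood at 609 against 86.6 CPM and the junction scaffold Tjp3 at 46.2 against 9.65 CPM. Cldn2, a claudin that forms a cation and water pore, stood at 36.3 against 10.1 CPM, within 4-fold. Cldn3 stood at 16.5 CPM against 0 UMIs and fell under the minimum level. Cldn5, the claudin of endothelium, had 104 UMIs, of which 95.2% lay in 10 barcodes.

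Transcription factors of the choroid plexus and midline had 18 of 24 measured, 2 higher and 9 lower (4 and 7 under TMM scaling), with a median log2 ratio of -2.03. Higher were Id1 (297 against 34.4 CPM) and Id3 (408 against 54.7 CPM), inhibitors of DNA binding that BMP signals induce. Otx2 and Msx1, homeobox factors of choroid plexus, stood at 311 against 87.7 CPM and 339 against 156 CPM, within 4-fold of ependymal-like barcodes, while Otx2 stood at 7.61 CPM in all other barcodes. Otx2 was detected in 78.1% of choroid plexus barcodes. Foxj1, the driver of motile cilia, stood at 45.4 against 485 CPM.

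Genes that tell hindbrain from forebrain choroid plexus were also read. Hoxa5, Hoxb2, Hoxb3, Hoxb4, Pax8 and En2 were detected in 0 of 558 barcodes, which allows a share of barcodes with a UMI of up to 0.538% and sets no limit on cells that express them. Emx2, a forebrain homeobox gene, was detected in 6.45%, against 0.563% of microglia-like barcodes. The Hox genes known from the hindbrain plexus were thus not detected at this depth.

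Cilium genes had all 27 members measured, 0 higher and 17 lower, with a median log2 ratio of -3.04. Because the rule capped the number of motile-cilium genes, their direction is in part set by it. Fam183b stood at 2.29 against 894 CPM. Dnah12, an axonemal dynein, had 1 UMI in all choroid plexus barcodes against 2996 UMIs in ependymal-like barcodes, and Sntn, a protein of the ciliary tip, had 3 against 3073 UMIs. These were among the 10 genes with the lowest ratio, all with 1 to 3 UMIs in choroid plexus barcodes, the others being Ppp1r32, Adamts20, Cdhr4, Myb, Pamr1, Slc14a2, Dchs1 and Syt10. A gene at 0 UMIs was set to the floor of 3, which places it above genes counted at 1 UMI. The 10 are therefore not necessarily the most depleted genes. Other cilium genes stayed present, such as Cfap126 (313 against 716 CPM), Ift20 (283 against 328 CPM) and Tekt1 (152 against 273 CPM). Against all other barcodes, 9 of 24 cilium genes were at least 4-fold higher and 2 lower in the choroid plexus barcodes, with a median log2 ratio of 1.42. The choroid plexus barcodes thus lay between the multiciliated class, itself chosen by such genes, and the rest for this list.

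**Figure D2:**
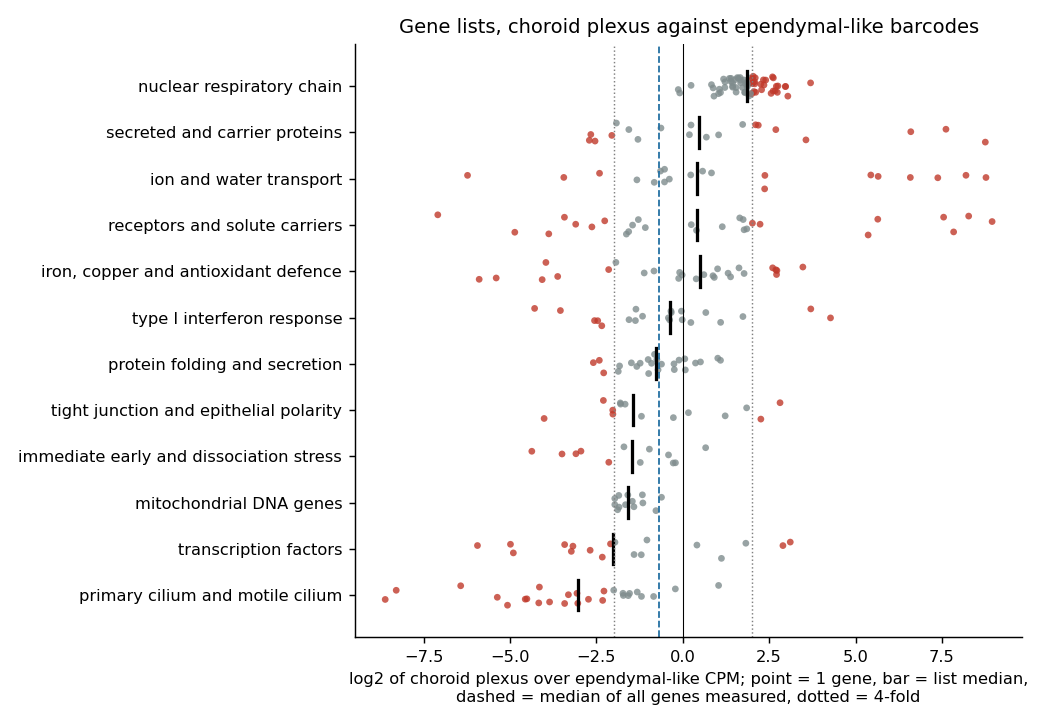
Ratio of choroid plexus over ependymal-like CPM on a log2 axis for the measured genes of 12 lists; each point is 1 gene, red past 4-fold, black bars are list medians and the dashed line is the median of all genes (-0.68). The nuclear respiratory chain lies to the right (median 1.86) and the cilium genes to the left (median -3.04).

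Nuclear genes of the respiratory chain, which encode subunits of complexes I, III, IV and V and related proteins, had the highest median of the lists against ependymal-like barcodes. All 65 in the table were measured, and 27 were at least 4-fold higher and 0 lower than in ependymal-like barcodes, with a median log2 ratio of 1.86 against -0.68 for all genes. Against all other barcodes 39 were higher and 0 lower, with a median of 2.21. Atp5g1, a subunit of the ATP synthase ring, stood at 2868, 3210, 3299 and 3203 CPM by ending, against 251 CPM in ependymal-like barcodes and 213 CPM in all others. Ndufa4 stood at 2962, 2853, 3032 and 2495 CPM, against 359 CPM, and Cox8a at 5290, 4448, 4897 and 4926 CPM, against 934 CPM. Values were even across the 4 endings and above the ependymal-like level in each. The count was 52 under TMM scaling and 16, with a median of 1.62, when barcodes of both classes with under 0.5% of mitochondrial UMIs were left out.

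The 13 genes of the mitochondrial DNA itself did not run with them. All 13 were lower in choroid plexus than in ependymal-like barcodes, none of them past 4-fold, with a median log2 ratio of -1.59. mt-Co1, a catalytic subunit of cytochrome c oxidase, stood at 3401 CPM against 13299 CPM. With only barcodes of 0.5% or more mitochondrial UMIs in both classes the median was -0.92, against -0.76 for all genes. Against all other barcodes it was -0.63, near the -0.65 of all genes, and 1 of the 13 was higher. The mitochondrial share of a barcode's UMIs had a median of 1.60% in choroid plexus barcodes, against 6.73% in ependymal-like barcodes. The deposited table holds no barcode over 10% mitochondrial UMIs.

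RNA composition set the choroid plexus barcodes apart in a further way. Malat1, an abundant RNA retained in the nucleus, had a median of 1 UMI, against 182 UMIs in ependymal-like and 200 UMIs in all other barcodes. It was at 0 in 253 choroid plexus barcodes (45.3%, 41.2 to 49.6%), against 14.1% of ependymal-like and 4.57% of all other barcodes. Thinned to 2000 UMIs other than Ttr, the share at 0 was 74.7% (70.6 to 78.4%) of 501 choroid plexus barcodes, against 9.76% of 410 ependymal-like and 3.78% of 18183 other barcodes. Summed, Malat1 stood at 932 CPM, against 17553 CPM in ependymal-like and 38772 CPM in all other barcodes, and 65.5% of its UMIs in choroid plexus barcodes lay in 10 of them. Other nuclear RNAs, picked after their values were seen, ran the same way, with Neat1 at 7.19 against 92.1 CPM and Kcnq1ot1 at 7.51 against 335 CPM in ependymal-like barcodes.

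Under 0.5% of mitochondrial UMIs were found in 193 choroid plexus barcodes (34.6%, 30.6 to 38.7%), against 18.2% of ependymal-like and 5.41% of all other barcodes. Both properties met in 87 choroid plexus barcodes, and 199 (35.7%) had neither, against 78.2% of ependymal-like and 91.3% of all other barcodes. Among choroid plexus barcodes, Malat1 was at 0 in 45.1% of those under 0.5% mitochondrial UMIs and in 45.5% of the others. These close shares were counted before thinning, so how the properties relate at equal depth was not tested. The 305 choroid plexus barcodes with a Malat1 UMI still had a median of 2, against 247.5 in the 402 such ependymal-like barcodes, so the part of low nuclear RNA in the gene ratios was not tested. Whether a choroid plexus barcode holds a whole cell or part of one was not tested either, and ratios and shares are of the RNA in these droplets.

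**Figure D3:**
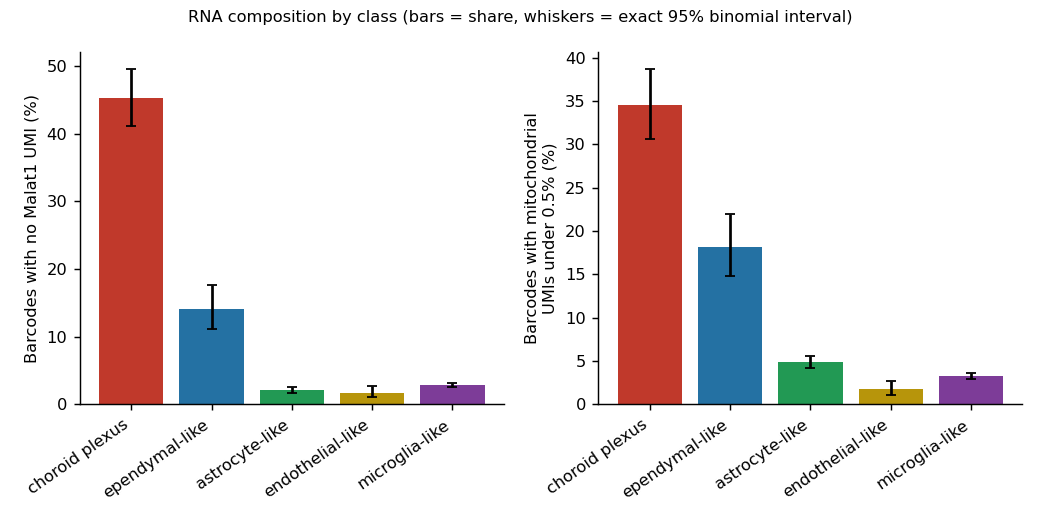
Share of barcodes with no Malat1 UMI (left) and with under 0.5% mitochondrial UMIs (right) in 5 classes, in percent; bars are shares of barcodes before thinning and whiskers exact 95% binomial intervals. The choroid plexus bars, at 45.3% and 34.6%, are above those of the ependymal-like barcodes, at 14.1% and 18.2%.

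Iron, copper and antioxidant genes had 26 of 33 members measured, 5 higher and 6 lower (9 and 5 under TMM scaling), with a median log2 ratio of 0.50. Higher were Trf, transferrin (677 against 105 CPM), the copper chaperone Atox1 (1529 against 138 CPM), the peroxiredoxin Prdx5 (1930.2 against 292 CPM) and Nqo1, a quinone reductase (126 against 20.8 CPM). Lower were the metallothioneins Mt1 (471 against 7906 CPM) and Mt2 (30.1 against 1268 CPM), and Gstm1, a glutathione transferase (129 against 2015 CPM). Trf stood higher still in microglia-like barcodes, at 875 CPM. The list was split between genes of either direction.

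Against all other barcodes, 16 of 16 measured antigen presentation genes were at least 4-fold lower in choroid plexus barcodes. Those other barcodes include 10131 microglia-like ones of 19937, and the rule capped microglial UMIs in choroid plexus barcodes. The highest log2 ratio was -2.11, near the 4-fold limit, and no TMM count is given for this comparison. Against ependymal-like barcodes, 13 of 18 were measured, 4 higher and 2 lower (4 and 0 under TMM scaling), and the 4 higher ones were Cd74, H2-Aa, H2-Eb1 and H2-Ab1 of MHC class II, with 96.7% of the 540 Cd74 UMIs in 10 barcodes and all 201 H2-Aa UMIs in 4 barcodes. Without the 74 choroid plexus barcodes that held markers of another type, the microglia list left aside, 0 of 9 measured genes were higher and 6 lower, with a median log2 ratio of -2.52, and without the 272 found with that list the counts were also 0 and 6 of 9, with a median of -2.21. Of the leukocyte and complement list, 10 of 24 were measured, with 2 higher and 6 lower (2 and 3 under TMM scaling). The higher ones were Vcam1, an adhesion molecule for leukocytes (211 against 10.5 CPM), and Cd59a, an inhibitor of complement (92.1 against 22.4 CPM). Complement C3 stood at 2.61 against 307 CPM.

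Immediate early and dissociation stress genes had 12 of 23 members measured, 0 higher and 5 lower than in ependymal-like barcodes, with a median log2 ratio of -1.47. Jun stood at 9.31 against 105 CPM and Klf6 at 10.8 against 91.9 CPM. Protein folding and secretion genes had 24 of 25 measured, 0 higher and 3 lower (0 and 0 under TMM scaling), with a median log2 ratio of -0.78, near that of all genes. Of 14 measured of 16 genes tied to amyloid, 2 were higher and 4 lower (2 and 1 of 13 under TMM scaling), with a median of -0.60 (0.42 under TMM scaling), and Ace, angiotensin-converting enzyme, stood at 133 against 11.2 CPM. The senescence list had only 2 of 10 genes measured, among them Cdkn1a at 19.8 against 123 CPM.

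The choroid plexus barcodes differed widely among themselves in Ttr. Thinned to 3000 UMIs, 496 of them were compared, and the variance over the mean, a measure that grows with the level of a gene, was 333 for Ttr, with 21 to 1843 UMIs per barcode, against a median of 1.24 over 876 genes. Hbb-bs, a haemoglobin gene, was above it at 576, with 96.1% of its UMIs in 10 barcodes, and Hba-a1, Hba-a2 and Malat1 came next after Ttr. Mitochondrial genes, Apoe and Enpp2 completed the first 10 together with Tmsb4x.

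A set of genes varied with the Ttr share from barcode to barcode. All correlations here are Spearman coefficients over 501 barcodes thinned to 2000 UMIs other than Ttr, which share libraries and depth, and they are descriptions with no p-value. Over 692 genes the coefficient was negative for 581, with a median of -0.12. It was 0.90 for Enpp2, 0.87 for Bsg (basigin, a membrane glycoprotein), 0.84 for Clu, 0.83 for 1500015O10Rik, 0.79 for Igfbp2, 0.78 for Apoe and 0.77 for Psap (prosaposin, a lysosomal and secreted protein). Of 11 measured secreted and carrier proteins, 9 were positive, with a median of 0.70.

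All 11 measured mitochondrial DNA genes were positive too, with a median coefficient of 0.73. Their summed level followed the Ttr share by 0.72 in ending 1_1_2 (19 barcodes), 0.78 in 1_2_1 (166), 0.76 in 1_2_2 (303) and 0.74 in 1_3 (13). Depth ran the other way, at -0.45 over all. The nuclear respiratory chain did not follow: 54 of its 62 genes were negative, with a median of -0.18 near that of all genes. The most negative genes were Ppia, the cyclophilin A gene, at -0.52, Dbi at -0.39 and Atp5g1 at -0.39. Among the rule genes the coefficient ranged widely, at 0.70 for Folr1, 0.60 for Sostdc1, 0.57 for Kcnj13, 0.33 for Kl and -0.04 for Clic6.

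Split by their Ttr share, 137 barcodes were under 5%, 199 from 5 to 20% and 222 at 20% or more. Median depth was 13733, 9042 and 5769.5 UMIs in these ranges, the median mitochondrial share 0.0722, 1.18 and 5.08%, and the number of genes 3348, 2688 and 1651. Counted over UMIs other than Ttr, the secreted and carrier list took 8483, 20361 and 46718 CPM, and mitochondrial DNA genes took 3679, 21165 and 71225 CPM. Nuclear respiratory chain genes took 100174, 88348 and 76771 CPM, and interferon genes 4873, 4893 and 4906 CPM. Receptors and solute carriers took 2096, 4214 and 9847 CPM, ion and water transport 4019, 5545 and 9937 CPM, protein folding and secretion 2458, 3994 and 7819 CPM, and the amyloid list, which holds secreted proteins such as Apoe and Clu, 2689, 9325 and 18948 CPM. Levels of these 4 lists, of secreted proteins and of mitochondrial DNA were thus higher with each range, and those of the respiratory chain lower. Rule genes were counted in these sums where a list held them. The ion and water sum covers 30 genes and the receptor and carrier sum 37, against 27 and 34 without rule genes. Part of these levels is therefore of genes that chose the barcodes. Enpp2 took 868, 5466 and 17271 CPM, and Bsg 525, 2132 and 6784 CPM. Malat1 was at 0 in 82.5, 75.8 and 73.6% of the thinned barcodes of the ranges. The ranges are bands of a continuous share, and 8 of those under 5%, 35 of those between and 22 of those at 20% or more lay within 10% of a limit's own value.

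**Figure D4:**
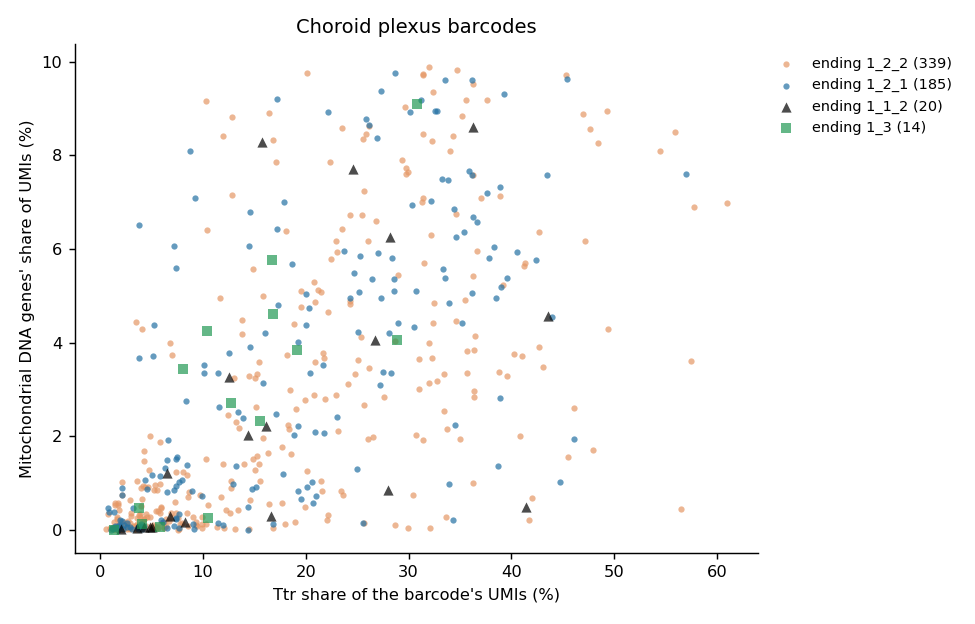
Share of Ttr (horizontal, percent of a barcode's UMIs) and of mitochondrial DNA genes (vertical, percent) in the 558 choroid plexus barcodes, 1 point each, by barcode ending. Barcodes under 5% Ttr lie near 0 on the vertical axis (median 0.0722%), those at 20% or more are spread up to 9.89%.

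Interferon-induced genes were compared across endings. Against ependymal-like barcodes the list had 21 of 27 measured, 2 higher and 5 lower (3 and 2 of 20 under TMM scaling), with a median log2 ratio of -0.38 (0.28 under TMM scaling). Its summed level was 6265, 2818, 4862 and 3288 CPM in choroid plexus barcodes of endings 1_1_2, 1_2_1, 1_2_2 and 1_3, and 2712 and 4166 CPM in ependymal-like barcodes of 1_2_1 and 1_2_2. Ifi27, an interferon-induced mitochondrial protein, carried most of it, at 3345, 1762, 2829.5 and 2123 CPM in choroid plexus barcodes, against 469 and 873 CPM in ependymal-like and 124 to 148 CPM in microglia-like barcodes.

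Ifi27l2a, a relative of Ifi27, stood at 692, 243, 709 and 239 CPM in choroid plexus barcodes. Ependymal-like barcodes had 27.6 CPM in 1_2_1 and 48.3 CPM in 1_2_2. Microglia-like barcodes had 43.3, 252, 292, 656 and 38.9 CPM in endings 1_1_1, 1_1_2, 1_2_1, 1_2_2 and 1_3. Between the 2 large endings, these 3 classes stood higher in 1_2_2 than in 1_2_1. Endothelial-like barcodes had 193 CPM in 1_2_2 (24 barcodes) and 45.9 CPM in 1_2_1. Astrocyte-like barcodes had 51.1 CPM (37.1 to 68.6) in 1_2_2 and 77.0 CPM (62.1 to 94.5) in 1_2_1, and these intervals overlap. Ifit3, an antiviral effector, was higher in ependymal-like than in choroid plexus barcodes of both, at 178, 12.4, 46.2 and 16.0 CPM in choroid plexus barcodes and 143 and 264 CPM in ependymal-like barcodes. The 178 CPM of ending 1_1_2 rest on 34 UMIs in 25% of 20 barcodes, and Isg15, a ubiquitin-like interferon product, had 37 UMIs there in 10% of them. What tells the endings apart is not labelled, so tissue, batch and ending cannot be told apart.

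**Figure D5:**
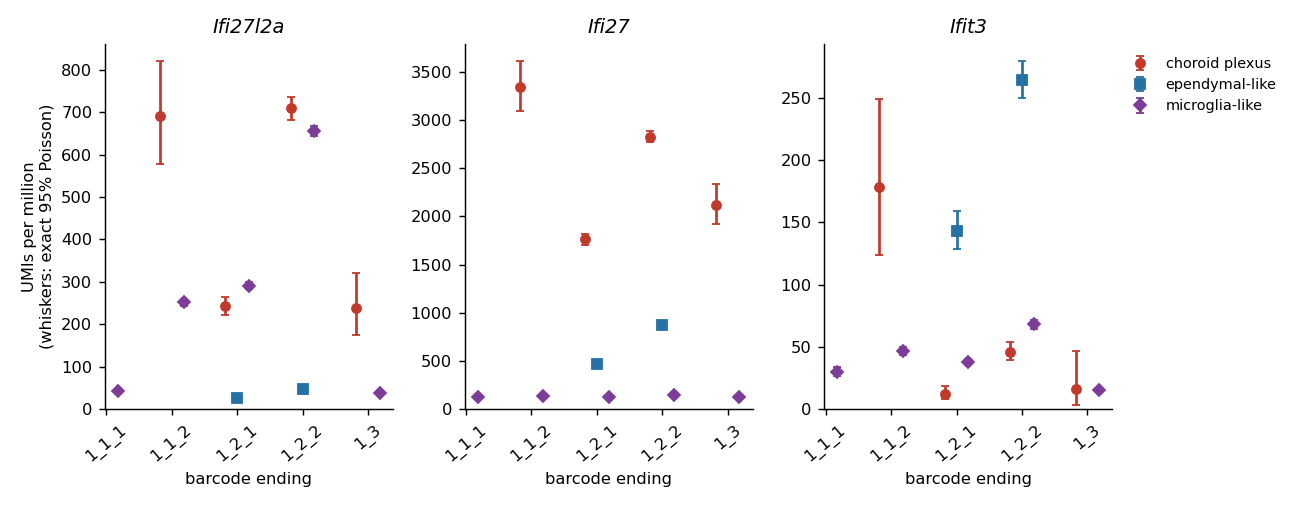
Levels of Ifi27l2a, Ifi27 and Ifit3 in CPM by barcode ending, for choroid plexus, ependymal-like and microglia-like barcodes; whiskers are exact 95% Poisson intervals and classes with too few barcodes in an ending are not drawn. Choroid plexus points lie highest for Ifi27 (1762 to 3345 CPM) and ependymal-like points for Ifit3 in endings 1_2_1 and 1_2_2 (143 and 264 CPM).

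In microglia-like, astrocyte-like and endothelial-like barcodes, Ttr was highest in the 2 endings that held nearly all choroid plexus barcodes. Microglia-like barcodes, which should lack Ttr, held a Ttr UMI in 93.1% in ending 1_2_2 and 71.6% in 1_2_1, against 12.1% in 1_1_2, 8.99% in 1_3 and 7.02% in 1_1_1. Thinned to 2000 UMIs, these shares were 53.0, 28.3, 3.33, 2.78 and 1.65%. As levels they were 378, 197, 18.5, 13.3 and 10.7 CPM, in the same order as the shares of choroid plexus barcodes (8.00, 4.65, 0.473, 0.246 and 0%). Ependymal-like barcodes had 428 CPM in 1_2_2 and 146 CPM in 1_2_1, astrocyte-like 387 and 170 CPM, and endothelial-like 200.3 and 115 CPM. In endings 1_1_2, 1_3 and 1_1_1 these last 2 classes did not keep the order. Astrocyte-like barcodes had 21.5, 22.1 and 12.5 CPM there, and endothelial-like ones 7.52 (1 UMI), 9.99 and 9.24 CPM. In the 2 large endings a low Ttr count was thus present in every class, and a Ttr UMI alone does not mark a choroid plexus barcode. The ratio of Ttr to Enpp2 UMIs was 29.2 and 21.6 in choroid plexus barcodes of 1_2_2 and 1_2_1, and 43.1 and 24.9 in microglia-like barcodes, over 174 Enpp2 UMIs each. It was lower in ependymal-like (6.86 and 2.89), astrocyte-like (4.69 and 3.83) and endothelial-like barcodes (1.71 and 1.76) of these endings. Microglia-like barcodes of 1_1_1, an ending with 0 choroid plexus barcodes, had 29.3 over 3 Enpp2 UMIs. Where the Ttr UMIs of other classes came from was not tested.

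The same rule was applied to the table deposited for the ApoeKO libraries, 4 white matter pools of 2 male B6.129P2-Apoetm1Unc/J mice of 18 months. Like the aged libraries, they carried actinomycin D at 45 µM. Of that table only the columns starting with L7 and L8 were read, which no label ties to a library. The rule took 210 of 1085 barcodes in L7 (19.4%, 17.0 to 21.8%) and 116 of 1645 in L8 (7.05%, 5.86 to 8.40%). Ttr took 20.4% and 16.5% of their UMIs. The median Malat1 count was 1 UMI in both, against 114 and 88 UMIs in the other barcodes of these columns, and it was at 0 in 39.0% and 49.1%. The mitochondrial share followed the Ttr share by 0.67 and 0.68.

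Of the 20 genes with the largest ratio over other cells in the aged table, 15 are not rule genes. All 15 were at least 4-fold above the other cells in both column sets, the lowest ratios being 5.71 in L7 and 9.08 in L8, and 7 and 10 of them were among the first 20 genes there, rule genes left out. The share of all genes past 4-fold in these columns is not given here, so this count has no background to be read against. The same rule also chose the barcodes of both tables. Kl stood at 770 and 675 CPM in L7 and L8, and at 402 CPM in the aged table. Otx2 stood at 306 and 331 CPM, and at 311 CPM in the aged table. Ifi27l2a stood at 42.2 and 44.1 CPM, and at 239 to 709 CPM in the aged endings, and Sult1c1 stood at 40.7 and 25.6 CPM. Apoe had 4 UMIs (2.08 CPM) in choroid plexus barcodes of L7 and 1382 UMIs (1964 CPM) in those of L8, with 3.72 and 6199 CPM in microglia-like barcodes. The L8 columns thus hold Apoe RNA although the table is named for the knockout, and their genotype is not stated here. Age, genotype and library differ between the tables and cannot be told apart.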

How the data were processed

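UMI counts per gene and barcode were used as deposited by the authors in 1 table of the aged 10x libraries and, for 2 sets of columns, in the table of the ApoeKO libraries. Libraries were made with Chromium Single Cell 3' v3.1, per the labels' protocols, and bcl2fastq, FastQC, Trim Galore, Cell Ranger 4 and mm10 appear in the submitters' processing notes. No filter is stated, and the aged table holds barcodes of 199 or more genes and at most 10% mitochondrial UMIs. No label ties a column to a library, so the aged table was taken as 1 pooled sample, and values are also given per barcode ending. In the ApoeKO table, 11224 columns were not used. The plate-based tables of sorted cells were not used here.

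Ependymal-like barcodes held 4 or more of 5 cilium genes, astrocyte-like and endothelial-like barcodes 4 or more of 7 markers, and microglia-like barcodes 30 or more microglial UMIs per 10000. UMIs were summed per class and divided by the class total (CPM). A gene was measured with at least 20 UMIs in both classes together and 20 CPM in one, and counted past 4-fold. A class at 0 was set to a floor of 3 UMIs over the class. Shares have exact binomial and levels exact Poisson 95% intervals, and ratios the exact conditional one, which cover counting error only. No doublet caller was run. Thinning used fixed seeds. TMM factors (edgeR 4.0.16) served for 1 alternative only. The ratio step was tested on simulated counts. Python 3.11.15, numpy 2.4.6, scipy 1.17.1, pandas 2.3.3 and matplotlib 3.10.9 were used.

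Named genes were the rule genes and Ttr, the 20 with the largest ratio to all other barcodes, the 15 with the largest and 10 with the smallest ratio to ependymal-like barcodes, the 20 with most UMIs, the 10 with the largest variance over mean, and list members of high level or past 4-fold. Choroid plexus barcodes, lists and markers were chosen with earlier results of these data known. Alternatives changed the rule, scaling, minimum levels, endings and mixed barcodes, and 4 of them, on Malat1, mitochondrial share and microglia markers, were chosen after seeing the data. Some genes of the lists are not reported here by name.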

Additional observations from a re-analysis of the deposited data

Results flagged for a closer look

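Columns of the ApoeKO table, outside the main comparison, also held barcodes that met the rule, 210 in the columns starting with L7 and 116 in those starting with L8. Both numbers are above the limit of 3 barcodes that a count of 0 would allow, which says only that such barcodes were present there. No label ties these columns to a library, so they were set beside the aged table without a test.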

How the results depend on the processing

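No paired analysis was possible because the columns carry no batch number and the results come from no test between samples. The rule took 429 to 686 barcodes when 3 or 5 rule genes, 1000 genes or a microglial limit of 10 UMIs per 10000 were asked for, but 144 with fewer than 2 cilium genes. The Ttr share of 14.4% was 13.5 and 15.4% with at least 3 and 5 rule genes, 14.0% with 1000 genes, 14.8% under the lower microglial limit, 25.9% with fewer than 2 cilium genes, 17.7% as a mean over barcodes, 15.7% without the 74 barcodes with 3 or more markers of another type (microglia list left aside), 17.1% without the 272 found with that list, 14.2% with a Malat1 UMI, 20.5% with 0.5% or more mitochondrial UMIs, and 13.7 to 15.4% without 1 barcode ending at a time. Against ependymal-like barcodes, TMM scaling gave 797 higher and 1258 lower genes, no minimum beyond 1 UMI 835 and 4022, and without the 74 barcodes and 368 ependymal-like ones 1134 were lower. Against all other barcodes, TMM scaling gave 1086 higher and 1394 lower genes, no minimum 3681 and 5000, and fewer than 2 cilium genes 287 higher. Without 1 ending at a time these 4 counts were 381 to 400 and 1902 to 1993 against ependymal-like barcodes and 533 to 605 and 2048 to 2300 against all others. Of 1159 values for 61 named genes, 0 changed sign, and 17, of Apoe, Dbi, Atp5l, Cox6c, Cox8a and Ppia, dropped under 4-fold. Many of these genes were named for an extreme ratio in the same barcodes, so the lack of sign changes says little. Depth limits genes under about 20 CPM, and the 20 and 14 barcodes of endings 1_1_2 and 1_3 limit what these can show.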
